A study of Mus musculus with 16 samples.

Results

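The integrated stress response was followed through 10 genes in the medial prefrontal cortex (mPFC) of mice: Atf3, Chac1, Atf4, Atf5, Ddit3, Ddit4, Trib3, Asns, Sesn2 and Slc7a11. They were taken by symbol, and they fill 11 of the 26625 entries of the deposited gene table, because Ddit3 is listed under 2 identifiers. Atf3 and Chac1 were chosen by their fold changes with knockdown under saline, so that their values in that comparison are given as a description and without a test. The other 8 mice, which received morphine, were not part of that comparison. The 10 genes and the gene lists used below were chosen with earlier results of these data known, so counts over them are a description.

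All animals were male C57BL/6 mice aged 8 to 10 weeks, and every mouse had an adeno-associated virus injected into the mPFC before behaviour. The Ctrl mice received the virus labelled shNC, and the Kdm7a-shRNA mice received a virus in which the U6 promoter drives a short hairpin RNA against Kdm7a next to an EGFP marker. Where the paper names its control vector, for its calcium recordings, that vector also holds the U6 promoter, a hairpin labelled NC and EGFP. The U6 promoter is not specific to a cell type, and which cells carried a hairpin was not measured here. Conditioned place preference training lasted 10 days, with morphine at 10 mg/kg alternating with saline in the morphine groups and saline alone in the saline groups, and tissue was taken on withdrawal day 7. Of the Ctrl mice 4 had morphine and 3 saline, and of the Kdm7a-shRNA mice 4 had morphine and 5 saline, each a separate animal. RNA of whole tissue was sequenced as full-length cDNA on the Nanopore platform, with 6596991 to 12418112 counted reads per mouse. All 8 general neuron genes and all 6 excitatory neuron genes of the marker lists had enough reads to be tested. In such bulk RNA, fewer cells of a type and less RNA per cell cannot be told apart.

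The integrated stress response is a shared answer of cells to amino acid shortage, misfolded protein in the endoplasmic reticulum, heme shortage, mitochondrial damage or viral RNA. Kinases that sense these states phosphorylate the translation factor eIF2alpha, which lowers protein synthesis in general but lets the mRNAs of the transcription factors ATF4 and ATF5 be translated more. ATF4 then switches on further regulators (Ddit3, which encodes CHOP, and Atf3), enzymes and transporters that restore amino acids, and genes that act on glutathione and growth signalling. In neurons Atf3 is also known as a gene induced by injury.

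ATF4 is known to bind, with C/EBP partners, a composite element with the core TGATGNAA, and the promoters of the 10 genes were searched for it on both strands. The windows, from RefSeq on GRCm38.p6, ran from 250 bases before to 50 bases after the start of transcription, and 11 windows matched the 10 genes. The core was found for 5 of the 10 genes, Atf3, Chac1, Trib3, Asns and Slc7a11. It is present in 3.97% of all 32851 RefSeq promoter windows of the same length. Each stretch below is printed along the strand of its gene, with the core or its reverse complement TTNCATCA in capitals, to show how far the matches of different genes share their letters.
Atf3, chr1:191183396-191183483, minus strand: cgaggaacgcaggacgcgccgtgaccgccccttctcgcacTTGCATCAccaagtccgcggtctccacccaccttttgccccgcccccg
Chac1, chr2:119351009-119351096, plus strand: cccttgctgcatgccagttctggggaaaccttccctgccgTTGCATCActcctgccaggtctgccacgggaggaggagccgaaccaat
Slc7a11, chr3:50443615-50443719, minus strand: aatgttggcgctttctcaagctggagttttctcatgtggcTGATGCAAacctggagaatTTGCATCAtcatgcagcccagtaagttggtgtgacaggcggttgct
Asns, chr6:7693214-7693243, minus strand: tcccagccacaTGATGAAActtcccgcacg
Trib3, chr2:152344028-152344057, minus strand: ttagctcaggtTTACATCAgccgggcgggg
Atf3 and Chac1 hold the same 8 letters, TTGCATCA, at positions -110 and -193 from the RefSeq start. Slc7a11 has 2 matches that face each other, at -66 and -47. The Asns match, at -23, and the Trib3 match both lie inside an exon of the GENCODE annotation. The windows of Atf4, Atf5, Ddit3, Ddit4 and Sesn2 do not hold these letters, which says nothing of sites elsewhere. The cAMP response element TGACGTCA, found in 1.79% of all windows, was in 0 of the 10 genes, and the AP-1 element TGACTCA, with its reverse complement TGAGTCA, found in 5.2%, was in 1, Ddit3. These motifs do not overlap each other in the windows of the 10 genes. A match is a match of letters and not a binding site.

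**Figure D1:**
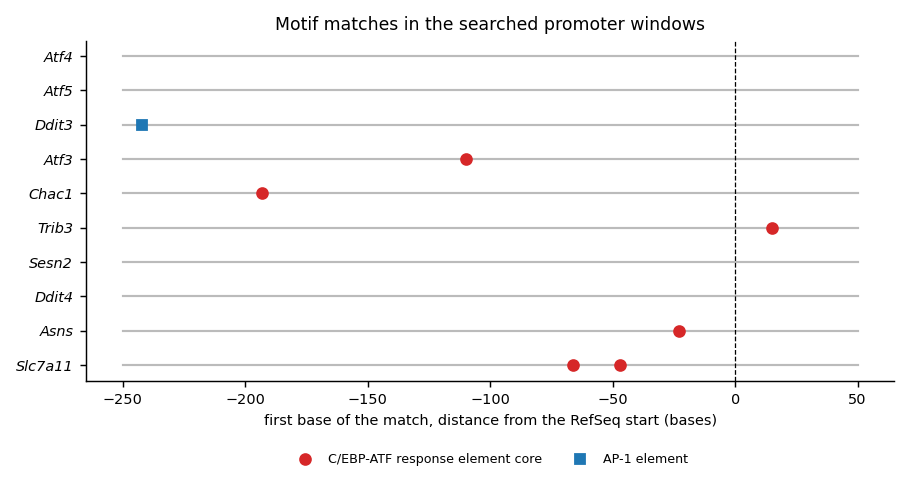
Position of motif matches, with each grey line a searched promoter window and the x axis the distance in bases of the first base of a match from the RefSeq start. Matches to the C/EBP-ATF core lie in 5 of the 10 genes, between -193 and 15, and 1 AP-1 match lies in Ddit3.

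The virus was checked on its target first. Kdm7a, a histone lysine demethylase, stood at 9.08, 9.41 and 9.78 normalized CPM (reads of a gene relative to all counted reads of the mouse, scaled with TMM factors) in the Ctrl + Saline mice and at 4.92, 4.95, 5.74, 6.04 and 6.07 in the Kdm7a-shRNA + Saline mice. Under morphine the values were 6.19, 7.79, 8.02 and 8.89 with the control virus and 3.01, 4.44, 6.04 and 6.28 with the Kdm7a-shRNA virus. The saline groups did not overlap, whereas under morphine the highest knockdown mouse exceeded the lowest control mouse. Under morphine the difference on the log2 scale was -0.67, with an SE (standard error) of 0.206 and an adjusted p of 0.0506 in edgeR's quasi-likelihood test, just outside the threshold of 0.05. Under saline it was -0.76 (SE 0.204, adjusted p = 0.0153), which passed together with the required fold change of 1.5, although without Ctrl + Saline replicate 3 the adjusted p was 0.0533. The call under morphine was gained without Kdm7a-shRNA + Morphine replicate 1, Kdm7a-shRNA + Morphine replicate 4 or Ctrl + Morphine replicate 2 (adjusted p 0.0431, 0.0282 and 0.0339). Without Kdm7a-shRNA + Morphine replicate 3, the mouse with the lowest Kdm7a, the difference shrank to -0.47 (adjusted p = 0.167). With all mice kept, Kdm7a passed under morphine with library size only (-0.77, adjusted p = 0.0301), with DESeq2's Wald test (adjusted p = 0.0354) and with edgeR's exact test (adjusted p = 0.0339). In the other alternatives that kept all mice it did not pass, with adjusted p up to 0.136 in edgeR's quasi-likelihood test.

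The comparison of the 4 Kdm7a-shRNA + Morphine with the 4 Ctrl + Morphine mice asked how the stress response genes stood after knockdown in animals in withdrawal. Atf3, Chac1, Sesn2 and Ddit3 rose, by 5.96-fold, 2.51-fold, 2.01-fold and 1.71-fold. Of the 9 genes with enough reads to be tested, 4 passed an adjusted p under 0.05 with a fold change of at least 1.5, all as higher, while of all 18826 tested genes 7.69% passed and 2.86% passed as higher. For 7 of the 9 the lowest knockdown mouse was above the highest control mouse, which holds for 6.37% of tested genes. The median log2 fold change of the 9 was 0.77, beside -0.005 over all tested genes. The genes were chosen with earlier results of these data known, so these counts are a description. Trib3 was the member with too few reads, and Ddit4 was the only tested member with a negative log2 fold change.

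**Figure D2:**
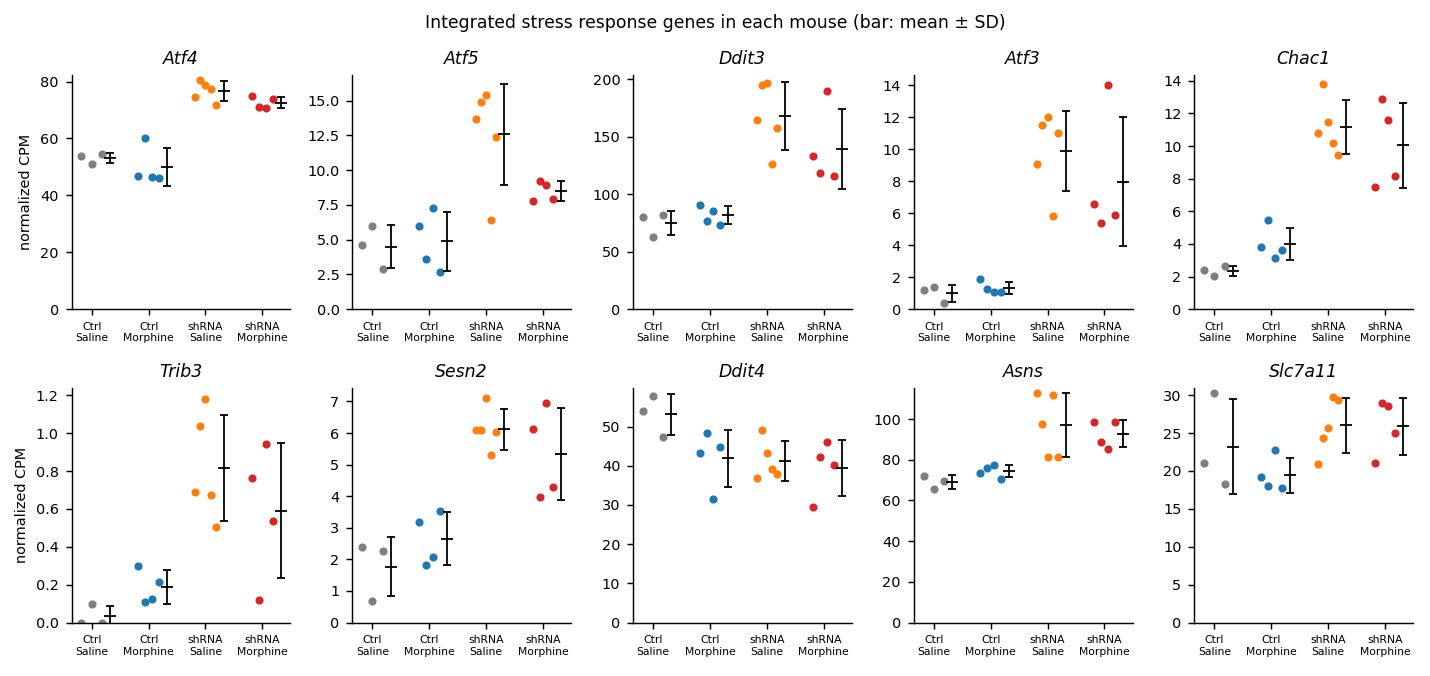
Normalized CPM of the 10 genes on a linear axis, 1 point per mouse in the 4 groups, with the mean and SD as a bar beside the points. Atf3 lay between 0.397 and 1.90 in all 7 Ctrl mice and between 5.40 and 14.0 in all 9 Kdm7a-shRNA mice, and Ddit4 overlapped between the viruses under morphine.

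Among the transcription factors, Atf3 (ENSMUSG00000026628, chr1:191170296-191218039, minus strand, GRCm38) showed the largest difference of the 9 genes. It encodes a bZIP factor that is nearly silent in unstressed cells. Its normalized CPM in the Ctrl + Morphine mice was 1.07, 1.10, 1.28 and 1.90, and in the Kdm7a-shRNA + Morphine mice 5.40, 5.90, 6.59 and 14.0. The lowest knockdown mouse was thus above the highest control mouse, and replicate 3 was far above the other knockdown mice. These values rest on 9 to 19 counts per control mouse and 43 to 163 per knockdown mouse. Atf3 thus had a log2 fold change of 2.58 (SE 0.365, adjusted p = 0.00105, edgeR's quasi-likelihood test). Without Kdm7a-shRNA + Morphine replicate 3, the most deeply sequenced library, it was 2.13 (adjusted p = 0.00517), and Atf3 passed with each of the 16 mice left out in turn.

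Ddit3 (ENSMUSG00000025408, chr10:127290774-127296288, plus strand) encodes CHOP, the factor that takes over when the stress lasts. Its normalized CPM was 73.3, 77, 85.7 and 90.4 in the Ctrl + Morphine mice and 116, 119, 133 and 190 in the Kdm7a-shRNA + Morphine mice. The groups did not overlap, and replicate 3 was again the highest. This gave a log2 fold change of 0.77 (SE 0.165, adjusted p = 0.00972, edgeR's quasi-likelihood test), and it was 0.59 without that mouse (adjusted p = 0.0385). The second Ddit3 identifier, ENSMUSG00000116429, lies inside the first on the same strand at chr10:127290829-127293753 and held 0 to 8 counts per mouse, so that reads could be split between them only to a small extent. The end of Ddit3 overlaps Mars, the methionyl-tRNA synthetase gene on the opposite strand (chr10:127296221-127311786). Whether the counting used strand is not given in the sources used here, and reads of the overlap cannot be told apart without it. Mars itself had a log2 fold change of 0.25 under morphine (adjusted p = 0.293) and of 0.54 under saline (adjusted p = 0.0177, fold change 1.45).

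Atf4 (ENSMUSG00000042406, chr15:80255184-80257541, plus strand) encodes the central factor of the response, which is controlled mostly at translation. Its normalized CPM was 46.1, 46.6, 46.9 and 60.1 in the Ctrl + Morphine mice and 70.8, 70.9, 73.8 and 74.8 in the Kdm7a-shRNA + Morphine mice. The knockdown mice lay close together and above all control mice, of which replicate 2 was the highest. The log2 fold change of 0.54 (SE 0.102, adjusted p = 0.00554, edgeR's quasi-likelihood test) corresponds to 1.45-fold, under the required 1.5-fold, so Atf4 did not pass. Without Ctrl + Morphine replicate 2 it was 0.64 and passed (adjusted p = 0.000589).
Atf5 (ENSMUSG00000038539, chr7:44812256-44816658, minus strand), a relative of ATF4 whose mRNA is translated in the same way, had values of 2.67, 3.63, 5.99 and 7.30 in the Ctrl + Morphine mice and 7.81, 7.92, 8.94 and 9.23 in the Kdm7a-shRNA + Morphine mice. The groups were adjacent without overlapping, and the control mice were spread widely. The log2 fold change of 0.80 (SE 0.303) did not pass, with an adjusted p of 0.104 in edgeR's quasi-likelihood test.

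Among the target genes, Chac1 (ENSMUSG00000027313, chr2:119351229-119354381, plus strand) encodes an enzyme that degrades glutathione. Its normalized CPM was 3.16, 3.64, 3.79 and 5.44 in the Ctrl + Morphine mice and 7.51, 8.19, 11.6 and 12.9 in the Kdm7a-shRNA + Morphine mice. The groups did not overlap, and the highest knockdown mouse was replicate 2, not replicate 3 as for Atf3. Chac1 rose by 1.33 on the log2 scale (SE 0.214, adjusted p = 0.00219, edgeR's quasi-likelihood test), and it passed with each of the 16 mice left out, at 1.19 to 1.51.
Sesn2 (ENSMUSG00000028893, chr4:132492032-132510501, minus strand) encodes a leucine sensor that restrains the growth kinase mTORC1. Its values were 1.81, 2.07, 3.19 and 3.53 in the Ctrl + Morphine mice and 3.96, 4.29, 6.13 and 6.96 in the Kdm7a-shRNA + Morphine mice. The groups were adjacent but did not overlap. Sesn2 rose by 1.01 on the log2 scale (SE 0.3, adjusted p = 0.0428, edgeR's quasi-likelihood test), and this call was lost when any of 9 single mice was left out. They were Kdm7a-shRNA + Morphine replicates 1 and 3, all 4 Ctrl + Morphine mice, and Kdm7a-shRNA + Saline replicates 1, 2 and 5, with adjusted p up to 0.151 without Kdm7a-shRNA + Morphine replicate 3.

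The other targets did not pass under morphine. Asns (ENSMUSG00000029752, chr6:7675169-7693254, minus strand), asparagine synthetase, ranged from 70.7 to 77.4 normalized CPM in the Ctrl + Morphine mice and from 85.5 to 98.4 in the Kdm7a-shRNA + Morphine mice, with a log2 fold change of 0.31 (SE 0.117, adjusted p = 0.097, edgeR's quasi-likelihood test). Its groups did not overlap. Slc7a11 (ENSMUSG00000027737, chr3:49892526-50443614, minus strand), the cystine importer that feeds glutathione synthesis, ranged from 17.8 to 22.8 and from 21.0 to 29.0, with a log2 fold change of 0.42 (SE 0.167, adjusted p = 0.123). Here the lowest knockdown mouse, replicate 1, was within the control range. Ddit4 (ENSMUSG00000020108, chr10:59949669-59951834, minus strand), a brake on mTORC1 that also responds to glucocorticoids, ranged from 31.5 to 48.3 and from 29.4 to 46.1, with a log2 fold change of -0.09 (SE 0.155, adjusted p = 0.772). Its sign turned to 0.03 without Kdm7a-shRNA + Morphine replicate 1.
Trib3 (ENSMUSG00000032715, chr2:152337422-152344032, minus strand), a pseudokinase that dampens ATF4 and CHOP, had 1 to 3 counts per Ctrl + Morphine mouse and 1 to 11 per Kdm7a-shRNA + Morphine mouse. The groups overlapped through knockdown replicate 2. Over the group totals of 7 and 21 counts the ratio of normalized totals was 3.27, with an exact 95% interval from 1.34 to 9.09 that covers counting error only.

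**Figure D3:**
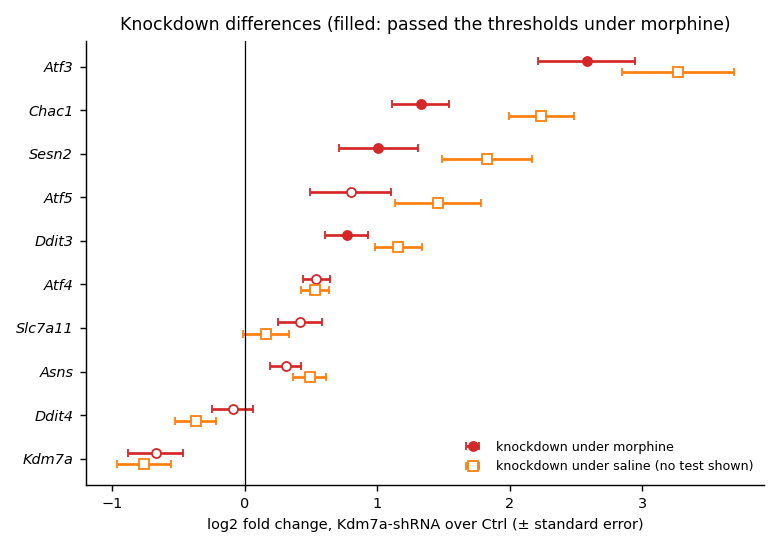
Log2 fold change of Kdm7a-shRNA over Ctrl mice with its standard error for the 9 tested genes and Kdm7a, under morphine (circles, filled where the thresholds were passed) and under saline (open squares, drawn as a description with no test). Atf3 is at 2.58 and 3.27 and Chac1 at 1.33 and 2.24, whereas Ddit4 lies at -0.09 and -0.37.

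Under saline, the comparison through which Atf3 and Chac1 were chosen, 5 of the 9 tested genes passed, all as higher, and 7 did not overlap between the groups. Over all tested genes 16.7% passed, 7.43% passed as higher and 11.1% did not overlap as higher. Nothing is read from these counts. Atf3 was 0.397, 1.19 and 1.37 normalized CPM in the Ctrl + Saline mice and 5.85, 9.08, 11, 11.5 and 12 in the Kdm7a-shRNA + Saline mice, a log2 fold change of 3.27. The Ctrl + Saline values rest on 3 to 14 counts per mouse. Chac1 was 2.05, 2.38 and 2.65 against 9.45, 10.2, 10.8, 11.5 and 13.8, a log2 fold change of 2.24. Both genes were clear of the control range in every knockdown mouse. Ddit3 stood at 63.1, 80.2 and 82.1 against 126, 158, 165, 195 and 197, a log2 fold change of 1.16. Sesn2 was 0.683, 2.25 and 2.38 against 5.29, 6.03, 6.09, 6.11 and 7.11, a log2 fold change of 1.83. Atf5 was 2.91, 4.63 and 5.95 against 6.41, 12.4, 13.7, 14.9 and 15.4, a log2 fold change of 1.46. In Atf3, Ddit3, Sesn2 and Atf5 alike, Kdm7a-shRNA + Saline replicate 4 was the lowest of the 5 knockdown mice.
The other 4 tested genes had log2 fold changes between -0.37 and 0.53. Atf4 ranged from 51.2 to 54.4 and from 71.6 to 80.6 (log2 fold change 0.53), and Asns from 65.6 to 72.2 and from 81.4 to 113 (0.49), both without overlap. Slc7a11 ranged from 18.3 to 30.3 and from 20.9 to 29.7 (0.16), and its sign turned to -0.01 without Ctrl + Saline replicate 3. Ddit4 ranged from 47.4 to 57.9 in the Ctrl + Saline mice and from 36.8 to 49.2 in the Kdm7a-shRNA + Saline mice (-0.37). Trib3 had 1 count in all 3 Ctrl + Saline mice together and 36 in the 5 Kdm7a-shRNA + Saline mice. The ratio of normalized totals was 20.5, with an exact 95% interval from 3.44 to 830 that covers counting error only.

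Morphine itself was compared with saline within each virus, in comparisons that share the saline mice through which Atf3 and Chac1 were chosen and the morphine mice above. Under the control virus 0 of the 9 genes passed edgeR's quasi-likelihood test, which 0% of all genes passed, and 0 of the 9 passed DESeq2's Wald test or edgeR's exact test as alternatives. At the same time 1 of the 9 had an unadjusted p under 0.05, beside 11.7% of all genes. That gene was Chac1, with a log2 fold change of 0.77 (SE 0.262, adjusted p = 0.244), and its 4 Ctrl + Morphine mice lay above all 3 Ctrl + Saline mice, as did those of 7.04% of genes. The other log2 fold changes ran from -0.34 for Ddit4 to 0.63 for Sesn2, with that of Atf3 at 0.41 (SE 0.488, adjusted p = 0.784). Under the Kdm7a-shRNA virus 0 of the 9 passed by any of these 3 tests (0.00531% of all genes passed the first), 0 had an unadjusted p under 0.05, beside 7.02% of all genes, and the log2 fold changes ran from -0.56 for Atf5 to 0.00 for Slc7a11. Morphine thus gave no called difference in these genes with either virus, where the first test called 0% and 0.00531% of all genes. For the other tests no share of all genes is given.
The interaction, the knockdown effect under morphine minus that under saline, was -0.69 for Atf3 and -0.91 for Chac1, with SEs of 0.569 and 0.324, and it was 0.01 for Atf4. It passed for 0 of the 9 genes by edgeR's quasi-likelihood test and by DESeq2's Wald test, with 0.085% of all genes passing the first. At an unadjusted p under 0.05 it held 1 of the 9, Chac1, beside 10.7% of all genes. This is a description, since the interaction contains the saline comparison.

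Set in order of group means, Atf3 was 0.984 ± 0.516 (SD, n = 3) in Ctrl + Saline, 1.34 ± 0.386 (n = 4) in Ctrl + Morphine, 7.97 ± 4.05 (n = 4) in Kdm7a-shRNA + Morphine and 9.87 ± 2.50 (n = 5) in Kdm7a-shRNA + Saline mice, in normalized CPM. Chac1 had the same order, with 2.36 ± 0.300, 4.01 ± 0.992, 10.1 ± 2.63 and 11.2 ± 1.67. For Atf3 the ranges overlapped between both Ctrl groups and between both Kdm7a-shRNA groups, but not between the viruses. For Chac1 both Kdm7a-shRNA groups overlapped and the Ctrl groups did not. Neither gene passed the test between morphine and saline with either virus.

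Genes of microglia, the resident immune cells of the brain, moved with the virus as well. Of the 9 microglia and macrophage genes, 5 passed as higher under morphine and 7 under saline, and all 9 were detected. Over all tested genes 2.86% passed as higher under morphine and 7.43% under saline. Their summed normalized CPM was 717 to 849 in Ctrl + Saline, 390 to 830 in Ctrl + Morphine, 746 to 3190 in Kdm7a-shRNA + Morphine and 1140 to 3360 in Kdm7a-shRNA + Saline mice. The number passing under morphine was 1 without any of Kdm7a-shRNA + Morphine replicate 3 and Ctrl + Morphine replicates 2, 3 and 4, 2 without Kdm7a-shRNA + Morphine replicate 1, and 1 in a fit of the compared groups alone. Under saline it was 1 or 2 without any 1 of the Ctrl + Saline mice, 3 without Kdm7a-shRNA + Saline replicate 3, and 4 without replicate 2 or 5 of that group or Ctrl + Morphine replicate 4. The mouse with the highest Atf3 under each treatment, replicate 3 in both knockdown groups, also had the highest microglia sum, at 3190 and 3360. Among the 9 knockdown mice, the 5 with the highest Atf3 were also the 5 with the highest microglia sums, whereas the highest Chac1 values, 13.8 and 12.9, belonged to mice with sums of 2390 and 1210. Kdm7a-shRNA + Morphine replicate 4 had a microglia sum of 746, within the range of the Ctrl + Morphine mice, and in it Atf3 was 5.90 and Chac1 8.19, above all Ctrl mice. The part of microglia in the levels of these genes was not tested.
The 6 inhibitory neuron genes summed to 488 to 549 and 517 to 543 in the Ctrl mice under saline and morphine, and to 329 to 439 and 361 to 481 in the Kdm7a-shRNA mice under saline and morphine. Of these genes 1 passed as higher and 1 as lower under morphine, and 2 and 3 under saline. Over all tested genes 7.69% passed under morphine, 2.86% as higher, and 16.7% under saline, 7.43% as higher. The astrocyte, oligodendrocyte, oligodendrocyte precursor, general neuron, excitatory neuron and lymphocyte lists had 0 passing genes under morphine by edgeR's quasi-likelihood test, with 3 of 7, 1 of 7, 0 of 6, 0 of 8, 1 of 6 and 1 of 5 at an unadjusted p under 0.05, and the 8 genes of blood vessels had 1, as higher. Nothing is read from the unadjusted counts, since no share of all tested genes is given beside them. DESeq2 passed 2 astrocyte genes under morphine and edgeR's exact test 1, and both passed 0 in the other 5 of these lists. Under saline 2 astrocyte, 2 oligodendrocyte precursor and 3 blood vessel genes passed, all as higher, beside 7.43% of all tested genes. The oligodendrocyte genes summed to means of 10400 and 9780 in the Ctrl mice under saline and morphine, and of 14300 and 14600 in the Kdm7a-shRNA mice. Those of excitatory neurons had means of 1200 and 1240 in the Ctrl mice, and of 879 and 1030 in the Kdm7a-shRNA mice. In both lists the ranges of the sums overlapped between the viruses under each treatment. No marker of these lists was at 0 in all 16 mice, and their part in the stress response values was not tested.

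**Figure D4:**
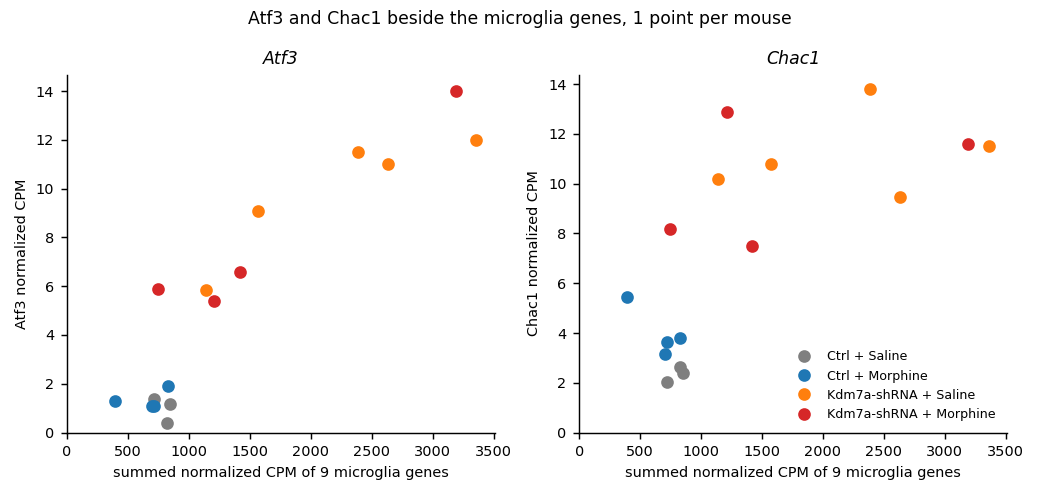
Normalized CPM of Atf3 (left) and Chac1 (right) against the summed normalized CPM of 9 microglia genes, 1 point per mouse coloured by group, on linear axes. The Kdm7a-shRNA mice with sums of 746 to 3360 had Atf3 from 5.40 to 14.0, and the Ctrl mice with sums of 390 to 849 had Atf3 from 0.397 to 1.90, while Chac1 spread from 7.51 to 13.8 in the Kdm7a-shRNA mice.

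Whether the mice of the knockdown virus varied together was asked within the 9 Kdm7a-shRNA mice, since Ctrl and knockdown mice form separate clusters. Pearson's r between Atf3 and Chac1 on the log2 scale was 0.39 (exact permutation p = 0.292, adjusted over 3 pairs 0.292) and Spearman's rho 0.30 (exact permutation p = 0.437, adjusted 0.463). Without the 2 mice farthest from the median of Atf3, Kdm7a-shRNA + Morphine replicates 2 and 3, r was 0.69 (exact permutation p = 0.0933). Atf3 and Kdm7a had an r of -0.48 (exact permutation p = 0.182, adjusted 0.278) and a rho of -0.28 (exact permutation p = 0.463, adjusted 0.463), and r was -0.66 (exact permutation p = 0.128) without the 2 mice farthest from the median of Kdm7a, the same 2. Chac1 and Kdm7a had an r of -0.49 (exact permutation p = 0.185, adjusted 0.278) and a rho of -0.62 (exact permutation p = 0.0857, adjusted 0.257), and r was -0.53 (exact permutation p = 0.22) without the same 2. None of the 3 relations passed the two-sided test, and 9 mice leave wide room for relations of this size.

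Over all 16 mice, the genes most like Atf3 among 14443 with a symbol, by Pearson's r of log2 values, were 1110038B12Rik, Rpl23a, Clu, Rnf181 and Rpl3, at 0.96 to 0.97. Rpl23a and Rpl3 encode ribosomal proteins and Clu encodes clusterin, an extracellular chaperone. With group means removed the r of these 5 was 0.64 to 0.82. Those most like Chac1 were Smpd1, Slc25a39, Ecel1, Aars and Cox7a2l, at 0.94 to 0.96, and 0.50 to 0.68 with group means removed. Aars encodes alanyl-tRNA synthetase and Smpd1 acid sphingomyelinase. Of the set itself, Ddit3 was the most like Atf3, with an r of 0.94 and of 0.64 with group means removed. Atf3 and Chac1 had an r of 0.91 over all mice, and 0.12 with group means removed. These values describe 16 mice that differ in virus, depth and cell markers.

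Beyond the 10 genes, the rest of the pathway was followed in lists written with earlier results of these data known, here counted over the genes tested. Of 9 genes of the eIF2alpha kinases and their regulators, 0 passed under morphine by edgeR's quasi-likelihood test, by DESeq2 or by edgeR's exact test, and 1 had an unadjusted p under 0.05, as lower. Under saline, where 7.43% of all tested genes passed as higher, 2 genes of this list passed, both as higher. They were Eif2ak3, the kinase PERK of the endoplasmic reticulum (log2 fold change 0.80, adjusted p = 0.033, edgeR's quasi-likelihood test), and Gcn1l1, the activator of the amino acid sensor GCN2 (0.59, adjusted p = 0.0268). The Eif2ak3 call was lost with library size only, the compared groups alone or genes with a symbol only, and without Kdm7a-shRNA + Saline replicate 1 or 2 or Ctrl + Saline replicate 2 or 3 (adjusted p up to 0.131). The Gcn1l1 call was lost under the same 3 settings and with at least 10 counts in every mouse, and without Kdm7a-shRNA + Saline replicate 2 or 3 or Ctrl + Saline replicate 2 or 3 (adjusted p up to 0.16). Over all alternatives 0 to 4 genes of this list passed under saline. Under morphine the same genes were at 0.08 and -0.27, with adjusted p of 0.882 and 0.336. Of 12 genes of eIF2, eIF2B and the eIF2alpha phosphatase, 0 passed under morphine or under saline by these 3 tests, with 3 and 4 at an unadjusted p under 0.05. The unadjusted counts of both lists have no share of all tested genes beside them, and nothing is read from them.

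The counts of this and the following lists stand beside 2.86% of all tested genes that passed as higher under morphine and 7.43% under saline. Under morphine the median log2 fold changes of these lists ran from -0.12 for mitochondrial stress to 0.37 for amino acid synthesis. The median was 0.10 for the NRF2 list, 0.07 for the neuronal injury list and -0.02 for the ATF6 and IRE1 list. Over all tested genes it was -0.005. Of 15 genes of amino acid synthesis, 2 passed under morphine, both as higher, and 7 under saline, 6 of them as higher. Under morphine Psat1, a serine synthesis enzyme, went from 54.9 to 107 mean normalized CPM (log2 fold change 0.96, adjusted p = 0.00344, edgeR's quasi-likelihood test), and Mthfd2, an enzyme of mitochondrial folate metabolism, from 4.78 to 12.4 (1.38, adjusted p = 0.00323). Both also passed under saline, at 1.03 and 1.67. Of 10 amino acid transporters 2 passed under morphine as higher, Slc38a1 (0.59, adjusted p = 0.00954) and Slc6a9, which carries glycine (0.92, adjusted p = 0.0188), and 4 under saline as higher. The call of Slc38a1 under morphine was lost, with the log2 fold change at 0.52 to 0.58, without Kdm7a-shRNA + Morphine replicate 3 or 4 or Ctrl + Morphine replicate 1 or 4. It was also lost with library size only (0.48), at least 10 counts in every mouse, the compared groups alone and genes with a symbol only. That of Slc6a9 was lost without Kdm7a-shRNA + Morphine replicate 1 or 3 or Ctrl + Morphine replicate 4, with adjusted p up to 0.0649. Of 13 aminoacyl-tRNA synthetases 1 passed under each treatment, beside 7.69% and 16.7% of all tested genes that passed in either direction, and under morphine this was Nars, asparaginyl-tRNA synthetase (0.78, adjusted p = 0.000643). Psat1, Mthfd2 and Nars passed with each of the 16 mice left out in turn.

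Of 21 partners of ATF4 and other bZIP regulators, 2 passed under morphine and 6 under saline, of which 5 as higher. The former were Nfe2l2, which encodes the oxidative stress factor NRF2 (log2 fold change 1.13, adjusted p = 0.0259, edgeR's quasi-likelihood test), and Nupr1 (1.41, adjusted p = 0.0346). Without Kdm7a-shRNA + Morphine replicate 3 they were 0.78 and 0.87 and did not pass (adjusted p 0.12 and 0.177). The Nfe2l2 call was also lost without Ctrl + Morphine replicate 2, 3 or 4, and that of Nupr1 without Kdm7a-shRNA + Morphine replicate 1 or any Ctrl + Morphine mouse. Both were also lost with the compared groups alone (adjusted p 0.0607 and 0.0543) and with genes with a symbol only (0.0501 and 0.0626). Among 22 other targets of ATF4 and CHOP, 2 passed under morphine, Nupr1 again and Eif4ebp1, an inhibitor of translation initiation (0.90, adjusted p = 0.0207), and 6 under saline, 5 as higher. Eif4ebp1 was also the 1 of 15 mTORC1 and growth regulators that passed under morphine, beside 3 under saline, all as higher, and its call was lost without the same replicate 3 (0.76, adjusted p = 0.0789), Kdm7a-shRNA + Morphine replicate 2 or Ctrl + Morphine replicate 4. Of 19 NRF2 targets and genes of glutathione metabolism, 4 passed under morphine, all as higher, and 7 under saline, 6 as higher. Those named by the smallest p were Srxn1, sulfiredoxin (0.74, adjusted p = 0.00619), Ftl1, the ferritin light chain (0.98, adjusted p = 0.0155), and Nqo1, a quinone reductase (1.43, adjusted p = 0.019). Srxn1 passed with every mouse left out, whereas Ftl1 and Nqo1 did not pass without Kdm7a-shRNA + Morphine replicate 3 (adjusted p 0.0571 and 0.0518), where Ftl1 was at 0.67, nor without Ctrl + Morphine replicate 4, and Nqo1 also not without Ctrl + Morphine replicate 1 or 3.

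Of 23 genes of the ATF6 and IRE1 branches of endoplasmic reticulum stress, 1 passed as higher and 1 as lower under morphine, and 6 as higher under saline. Edem1, which helps to degrade misfolded glycoproteins, was at 1.25 under morphine (adjusted p = 0.0455, edgeR's quasi-likelihood test), and 0.68 without Kdm7a-shRNA + Morphine replicate 3 (adjusted p = 0.246). Its call was lost with library size only, at least 10 counts in every mouse, the compared groups alone, the replicate block and genes with a symbol only (adjusted p up to 0.108), and in 11 of the 16 fits that left out a mouse, and kept only without Kdm7a-shRNA + Morphine replicate 2 or 4, Ctrl + Morphine replicate 1 or Kdm7a-shRNA + Saline replicate 3 or 4. Creld2, a chaperone-like protein of the endoplasmic reticulum, was lower under morphine, at -0.63 (adjusted p = 0.0314), and higher under saline, at 1.14 (adjusted p = 0.000917). Its mean normalized CPM was 7.65 in Ctrl + Saline, 13.3 in Ctrl + Morphine, 8.63 in Kdm7a-shRNA + Morphine and 16.8 in Kdm7a-shRNA + Saline mice, and its call under morphine was lost with the compared groups alone (adjusted p = 0.0536) and without Kdm7a-shRNA + Morphine replicate 1 or 3 or Ctrl + Morphine replicate 1 or 4. The mitochondrial stress list had 0 of 12 genes passing under either treatment by edgeR's quasi-likelihood test, DESeq2 or edgeR's exact test, with 5 and 4 at an unadjusted p under 0.05. Nothing is read from these unadjusted counts either, which have no share of all tested genes beside them. Of 15 p53 and DNA damage targets, 1 passed under morphine, Plk2, as lower (-0.66, adjusted p = 0.014, and -0.58, adjusted p = 0.0548, without Kdm7a-shRNA + Morphine replicate 3, and also lost without Ctrl + Morphine replicate 4), while 7 passed under saline, 6 of them as higher.

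Of 16 genes known to be induced with Atf3 in injured neurons, 3 passed under morphine, 2 as higher, and 7 under saline, 4 as higher. Ecel1, an endopeptidase of neurons, went from 1.30 to 6.35 mean normalized CPM under morphine (log2 fold change 2.27, adjusted p = 0.00463, edgeR's quasi-likelihood test). Tnfrsf12a, a TNF receptor family member, went from 13.9 to 37.1 (1.43, adjusted p = 0.00624). Gal, the neuropeptide galanin, passed in the opposite direction, with 2 to 17 counts per Ctrl + Morphine mouse and 0 to 1 per Kdm7a-shRNA + Morphine mouse. Its group totals of 43 and 2 counts gave a ratio of 0.0506, with an exact 95% interval from 0.00594 to 0.194 for counting error. These 3 calls held with each mouse left out.

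**Figure D5:**
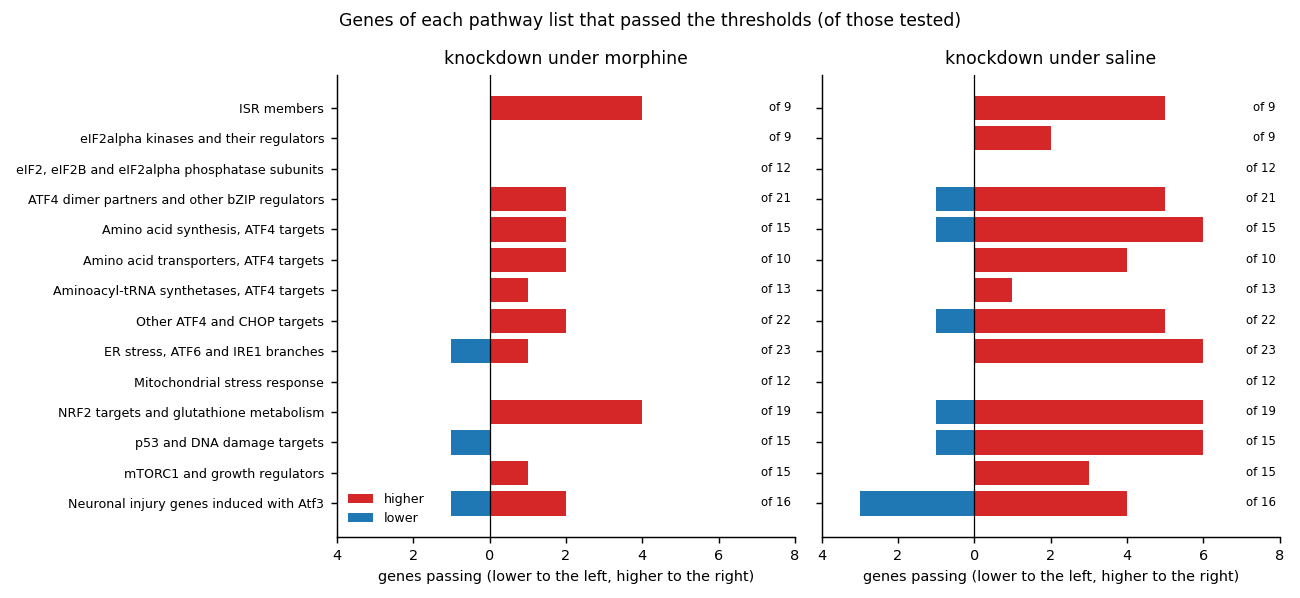
Number of genes in each pathway list that passed the thresholds with knockdown under morphine (left) and under saline (right), higher to the right and lower to the left of 0, with the number tested at the edge. The eIF2alpha kinase list has 0 under morphine and 2 under saline, and the NRF2 list has 4 and 7. Over all tested genes 7.69% passed under morphine and 16.7% under saline.

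Because the authors had filtered the reads on length, the values were also set beside transcript length. The longest GENCODE transcript of the tested members is between 890 bases for Ddit3 and 9223 for Slc7a11, and that of Atf3 is 1984 and that of Chac1 1637. Among known genes of 1001 to 2000 bases the median log2 fold change was 0.10 under morphine and 0.21 under saline, and above 5000 bases it was -0.03 and -0.05. In the shorter of these classes 5.91% of genes passed as higher under morphine, and in the longer 1.23%. The part of length in the members' values was not tested.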

How the data were processed

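The mPFC of 16 mice in 4 groups was measured. Per the study's methods, the authors filtered Nanopore reads on quality and length, removed ribosomal reads, kept full-length reads, clustered them on mm10 with minimap2 and Pinfish, merged them with cDNA Cupcake and counted reads per gene. The submitters' processing notes also name edgeR 3.8.6. The deposited counts are the authors' unnormalized reads per gene, and the deposited CPM values are those counts divided by each column's total and were not used in tests. No column of the table was outside the 16 mice.

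Members and gene lists were chosen with earlier results of these data known. Counts were analysed with edgeR 4.0.16 in R 4.3.3. The filterByExpr function left 18826 genes, which were scaled with TMM factors and fitted over all 16 mice with 1 coefficient for each group. The quasi-likelihood test was adjusted by the Benjamini-Hochberg method over all of them. Passing means an adjusted p below 0.05 together with a change of 1.5-fold or more. Normalized CPM divides counts by TMM-scaled totals, and log2 values add 0.5. Samples were grouped by the labels' virus and treatment. Depth was 6596991 to 12418112 reads per mouse. Over 25 pairs of mice within groups, chi-square divided by its degrees of freedom was 8.33 to 51.2, more than counting error gives.

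Named were all 10 members, up to 3 passing genes per direction of each list by smallest p under morphine (under saline where none passed), and the 5 genes most like Atf3 and Chac1. Correlations used exact permutation in SciPy 1.17.1. Alternatives were RLE factors, library size only, no filter, at least 10 counts in every mouse, the compared groups alone, DESeq2 1.42.0, the replicate number as a block, genes with a symbol only, edgeR's exact test, the adjusted p alone, and each mouse left out. On simulated counts of 18826 genes for the knockdown under morphine, the test recovered 44.7% of 2-fold and 94.3% of 4-fold changes. It recovered 142 of 200 changed genes, and 14 unchanged genes also passed. The simulated counts were drawn gene by gene, without shifts that the genes of a mouse share. Positions are from GENCODE vM21 on GRCm38 (mm10). Transcript-level values were not analysed here.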

Additional observations from a re-analysis of the deposited data

Results flagged for a closer look

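Atf3 in Kdm7a-shRNA + Morphine replicate 3 stood at 14.0 normalized CPM, apart from the next highest of the 4 mice of its group at 6.59, with a gap of 0.861 of the group's range. The same mouse had the deepest library and the highest microglia sum of its group. Atf4 in Ctrl + Morphine replicate 2 stood at 60.1 normalized CPM, apart from the next highest at 46.9, with a gap of 0.942 of the range. This rule on single far samples was applied to 30 groups of 4 or 5 mice, and chance gives about 1 in 20.

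Creld2 was lower with knockdown under morphine (-0.63) and higher under saline (1.14). Its call under morphine was lost when any 1 of 4 mice was left out. The interaction was -1.77 on the log2 scale (SE 0.256, adjusted p = 0.0182, edgeR's quasi-likelihood test, all 16 mice), the only one of 29 checked members, named list genes and Kdm7a with an adjusted p under 0.05. Over all tested genes 0.085% passed the interaction. The list genes were named because they passed a knockdown comparison that the interaction contains, so this is a description. The interaction of Creld2 was not rerun under the alternatives.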

How the results depend on the processing

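Of the 9 tested members, 4 passed with knockdown under morphine and 5 under saline. With at least 10 counts required in every mouse, 2 and 3 passed, because Atf3 and Sesn2 had too few counts to be tested. Under the other alternatives that kept all mice 3 to 5 passed under morphine and 5 to 7 under saline, and with 1 mouse left out 3 to 4 and 5 to 5. Between morphine and saline, and for the interaction, 0 passed under every alternative run. Atf3, Chac1 and Ddit3 passed with knockdown under morphine wherever they were tested, at 2.13 to 2.80, 1.19 to 1.51 and 0.59 to 0.85. Sesn2 lost its call with library size only (adjusted p 0.0634), the compared groups alone (0.0742) and genes with a symbol only (0.0781), beside the single mice named above. With library size only, the median over all genes shifted by -0.11 (morphine) and -0.13 (saline) on the log2 scale. With 1 mouse left out, Ddit4 under morphine ranged from -0.20 to 0.03, Eif2ak3 under morphine from -0.04 to 0.16 and Slc7a11 under saline from -0.01 to 0.41. Signs turned for Ddit4 under morphine without Kdm7a-shRNA + Morphine replicate 1 (0.03), for Eif2ak3 under morphine with library size only (-0.03), without Kdm7a-shRNA + Morphine replicate 1 (-0.03) or without Ctrl + Morphine replicate 4 (-0.04), and for Slc7a11 under saline without Ctrl + Saline replicate 3 (-0.01). The cause was not tested. The 3 correlations stayed without a call throughout, at 0.26 to 0.71, -0.70 to -0.10 and -0.67 to -0.39. List counts, which were 0 to 7 genes in the report, moved by over 1.5 times in 206 of 1144 alternative values, such as the microglia genes passing under morphine, 5 in the report and 1 to 7 over the alternatives.

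Replicate numbers name separate animals. Deviations of same-numbered mice correlated at -0.12 to 0.43 over 21 pairs, 6 of them over 0.1. Differently numbered mice were not compared in this way, so whether mice of the same number share a batch was not tested. With the replicate number as a block, 4 members passed under morphine and 5 under saline, and Edem1 under morphine had an adjusted p of 0.0591. Groups of 3 to 5 mice, and 3 to 19 counts per Ctrl mouse for Atf3, limit the precision of its fold change.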
